A study of Mus musculus with 2 samples.

Results

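The 10 genes described here encode the insulin receptor, its main docking proteins and inhibitors, a regulatory subunit of the kinase that they recruit, and 4 binding proteins of the insulin-like growth factors (IGFs). They were chosen by name as Insr, Irs1, Irs2, Pik3r1, Grb10, Grb14, Igfbp1, Igfbp2, Igfbp3 and Igfbp4, and their values were taken from probe sets to which the platform annotation gives exactly 1 gene symbol. All 10 were found among the 22180 genes named in this way. Their RNA was compared between liver of mice that lack Iah1 in the whole body (Iah1-KO) and liver of wild-type mice (Iah1-WT). Both groups were male, ate standard chow up to the age of 6 weeks and high-fat food for the next 12 weeks, were housed singly, and had been without food for 4 hours when tissue was taken, so they were about 18 weeks old. Each genotype is 1 Affymetrix whole-transcript array that carried the combined RNA of 3 mice. The spread between mice is averaged within each array, there is no replicate error and no test of the genotypes can be made. The words higher and lower below describe these 2 arrays. The high-fat diet was common to both, the labels used here name no strain, and no array from mice on chow was used here.

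Insulin binds its receptor on the hepatocyte, and the activated receptor phosphorylates the insulin receptor substrates, which dock phosphoinositide 3-kinase (PI3-kinase) through its regulatory subunit and thereby activate the kinase AKT. AKT keeps FoxO transcription factors out of the nucleus, so that genes driven by FoxO, with Igfbp1 as the textbook case, are repressed after a meal and expressed during fasting. The IGF-binding proteins are secreted and hold the IGFs in the circulation or at the cell surface, and liver is the main source of circulating IGF-1.

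Values are on the log2 scale of RMA, the method that corrects background, equalises the arrays and combines the probes of a probe set. A difference is Iah1-KO minus Iah1-WT on that scale. Genes entered the comparison where the higher array reached 4.68, the median over all genes, and 11090 genes did. All 10 members reached it, although Grb10 did so in Iah1-WT alone. The arrays had similar medians over all probe sets, 4.08 in Iah1-WT and 4.10 in Iah1-KO. Iah1 itself was at 8.59 in Iah1-WT and 3.90 in Iah1-KO, at least 15.1-fold lower when the filter takes the place of the lower value. Liver identity was checked with 12 hepatocyte markers, of which 11 had a probe set of their own and all 11 passed the filter, with albumin (Alb) at 13.3 in both arrays.

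**Figure D1:**
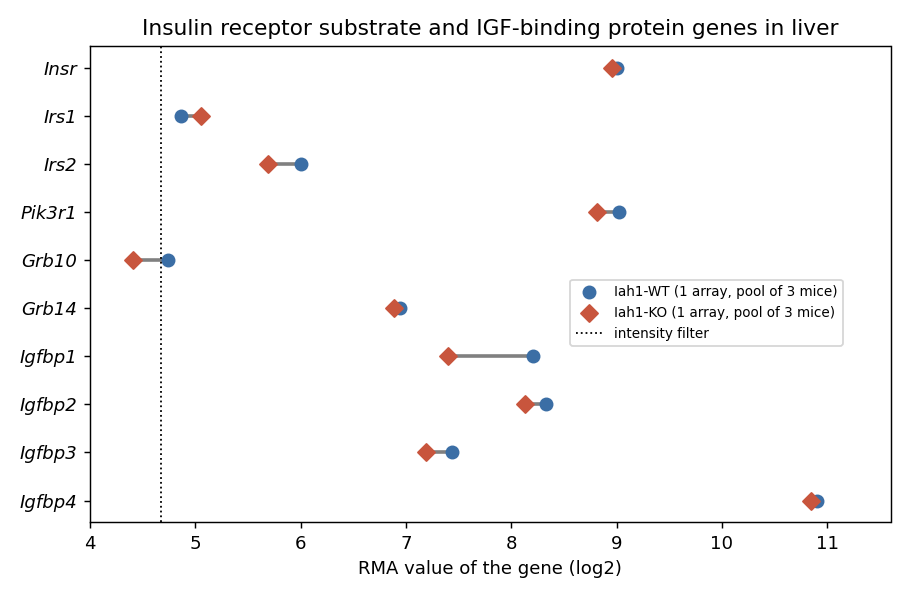
RMA value of each member gene on the log2 scale (horizontal axis) in the Iah1-WT array (circles) and the Iah1-KO array (diamonds), joined by a line. The dotted line is the intensity filter at 4.68. The longest line belongs to Igfbp1, at 8.20 in Iah1-WT and 7.40 in Iah1-KO, and Irs1 is the member with the Iah1-KO symbol on the right.

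Igfbp1 was the member with the widest gap between the arrays and the only one past 1.5-fold. Its single probe set read 8.20 in Iah1-WT and 7.40 in Iah1-KO, a difference of -0.81, which is 1.75-fold or 42.9% lower. Igfbp1 encodes a short-lived IGF-binding protein that hepatocytes secrete and that insulin represses at the level of transcription. Among all genes past the filter, 2.45% (272) were lower by 1.5-fold or more and 1.47% (163) were higher by as much. These counts and the ranks below use the RMA values as they stand. With the filter in place of every value below it, 181 genes were lower and 78 higher. For the members, these counts were 1 of 10 lower and none higher, and a single gene among 10 is not a share that can be set apart from the background. Igfbp1 can also be placed within a broad group of genes by brightness. When genes were divided by mean signal into 4 groups of equal size, the differences had a standard deviation of 0.36 in the dimmest group and 0.16 in the brightest. Igfbp1 belongs to the brightest group, in which 0.649% of genes were lower by 1.5-fold or more. It ranked 9 from the lowest of the 2773 genes there, and 94 from the lowest of all 11090. The brightest group spans mean values from 7.63 to 13.3, and Igfbp1 lies near its dim edge. In the next dimmer group the standard deviation was 0.20. The rank within the brightest group may therefore overstate how rare such a gap is at the brightness of Igfbp1 itself. These ranks describe the arrays and do not measure a spread between mice.

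**Figure D2:**
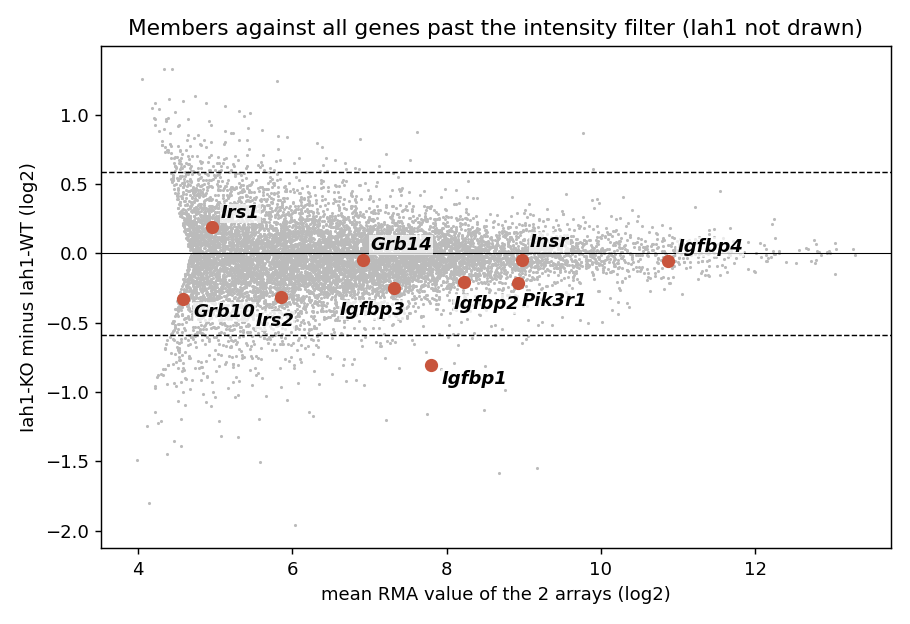
Difference Iah1-KO minus Iah1-WT on the log2 scale (vertical axis) against the mean RMA value of both arrays (horizontal axis) for genes past the intensity filter (grey points) and for the members (labelled points). Dashed lines mark 1.5-fold. Iah1, at -4.69, is not drawn. Igfbp1 lies at -0.81, where few grey points of like brightness are as low, while the other 9 members lie between the dashed lines.

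The promoter of Igfbp1 is shown because it holds the insulin response element through which FoxO factors act on this gene, and those of Irs1 and Irs2 because they hold the same core letters. They are the 250 bases before the annotated start, 5′ to 3′ on the gene's strand, from RefSeq (GRCm38.p6). The windows lie at chr11:7197537-7197786 on the plus strand for Igfbp1, chr8:11008930-11009179 on the minus strand for Irs2 and chr1:82291440-82291689 on the minus strand for Irs1. Capitals mark matches to CAAAACAA or its reverse complement TTGTTTTG, to the E-box CACGTG, and to the whole element of Igfbp1.
Igfbp1: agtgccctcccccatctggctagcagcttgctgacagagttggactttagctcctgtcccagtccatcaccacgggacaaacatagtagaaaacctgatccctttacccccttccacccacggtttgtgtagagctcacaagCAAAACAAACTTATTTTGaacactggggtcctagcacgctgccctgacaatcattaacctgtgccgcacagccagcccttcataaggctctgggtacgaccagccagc
Irs2: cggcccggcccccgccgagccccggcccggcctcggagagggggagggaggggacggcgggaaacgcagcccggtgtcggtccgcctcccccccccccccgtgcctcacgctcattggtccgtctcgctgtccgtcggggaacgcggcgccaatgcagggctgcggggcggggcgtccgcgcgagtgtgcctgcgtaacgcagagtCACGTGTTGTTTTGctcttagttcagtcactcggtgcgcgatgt
Irs1: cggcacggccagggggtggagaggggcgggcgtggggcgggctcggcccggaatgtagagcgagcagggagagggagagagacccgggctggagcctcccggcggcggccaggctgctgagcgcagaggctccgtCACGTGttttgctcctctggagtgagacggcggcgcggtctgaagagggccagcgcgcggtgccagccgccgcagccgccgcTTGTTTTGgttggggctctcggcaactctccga

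Of the 10 members, 9 had at least 1 such window in the table, with 12 windows in all, and Insr was not among them. CAAAACAA was found on either strand in Igfbp1, Irs1 and Irs2. It was in 2.21% of all 32851 windows of this length and in 2.54% of genes with a window. The motifs were chosen after the members' windows had been read, so these shares are no test. In Igfbp1 the match starts 108 bases before the start and opens the longer run CAAAACAAACTTATTTTG. No other window held that run, but it was read from the Igfbp1 window itself, so its absence elsewhere carries no weight. In Irs2 the reverse complement of CAAAACAA starts 38 bases before the start and directly follows an E-box, without overlap. In Irs1 it starts 33 bases before the start, with an E-box at 115 bases. E-boxes were found in 6.02% of windows, in 6.86% of genes with a window and, among the members, in Irs1, Irs2 and Igfbp2. The FoxO core GTAAACA, searched on both strands, was in 3.17% of windows and in none of the members' windows. The 3 genes with CAAAACAA did not share a direction, since Igfbp1 and Irs2 were lower in Iah1-KO and Irs1 was higher. A match of letters is a description of these windows and not evidence of binding.

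The receptor and the receptor substrates differed little or in opposite directions. Insr, the insulin receptor gene, read 9.00 in Iah1-WT and 8.96 in Iah1-KO, a difference of -0.05. Its position, 1111 from the lowest of the 2773 brightest genes, is near the middle of that group. Irs2, the substrate gene of liver that is itself induced by FoxO during fasting, read 6.01 in Iah1-WT and 5.69 in Iah1-KO. It was 1.24-fold lower, at -0.31, and 13.8% of the 2772 genes in its brightness group were as low or lower. Irs1, the substrate gene whose product shares the docking role, was the 1 member higher in Iah1-KO. Its mean over both probe sets was 4.86 in Iah1-WT and 5.05 in Iah1-KO, a difference of 0.19. The brighter probe set of Irs1 differed by 0.11, from 6.70 to 6.80. The dimmer one, at 3.03 and 3.30, lay below the filter in both arrays and differed by 0.27. In the dimmest group, where Irs1 falls by its mean, 27.2% of genes were as high or higher. It falls there only because the dimmer probe set is averaged in. The brighter probe set lies in the range of the next-to-brightest group, 6.44 to 7.62. Its 0.11 is smaller than the standard deviation of that group, 0.20.

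Irs2 depended on which probe sets were counted. A further probe set names both Irs2 and 9530052E02Rik and was left out by the rule that a probe set name 1 gene. It read 4.18 in Iah1-WT and 3.28 in Iah1-KO, a difference of -0.90, and lay below the filter in both arrays. With it included, the mean difference of Irs2 became -0.61 and the count of members lower by 1.5-fold became 2. The brightest probe set of Irs2 gave -0.31, as reported. Between probe sets of 1 gene, the standard deviation of a single probe set's difference was 0.27 over 604 genes, the only measure of error that these arrays hold. It covers disagreement between probes and leaves out mice, labelling and hybridisation. Against it, the differences of Insr, Irs1, Pik3r1, Grb14, Igfbp2, Igfbp3 and Igfbp4 were smaller than 1 standard deviation. That of Irs2 was slightly larger, as was that of Grb10 by RMA values (-0.33), whose Iah1-KO value is below the filter. That of Igfbp1 was larger than any of these. The measure pools dim and bright probe sets, so it is not matched to the brightness of a member.

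Pik3r1 encodes the p85-alpha regulatory subunit that ties PI3-kinase to the receptor substrates. It read 9.02 in Iah1-WT and 8.81 in Iah1-KO, which is 1.16-fold lower. In the brightest group, 8.11% of genes were as low or lower than its -0.21. The adaptor genes Grb10 and Grb14 encode related proteins that bind the activated insulin receptor and inhibit it. Grb10 read 4.74 in Iah1-WT and 4.41 in Iah1-KO. Its RMA values differed by -0.33, but the Iah1-KO value is below the filter. The fold is therefore only given as at least 1.04-fold lower (-0.06 on the log2 scale). A rank of Grb10 would rest on the RMA values and is not printed. Grb14, which is known to be well expressed in liver, read 6.94 and 6.89, a difference of -0.05. Its place in its brightness group was 1306 from the lowest of 2772, close to the middle.

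All 4 IGF-binding protein genes among the members were lower in Iah1-KO, by unequal amounts. Igfbp2 encodes the binding protein that is raised in fasting and reduced in fatty liver and obesity. It read 8.33 in Iah1-WT and 8.13 in Iah1-KO, a difference of -0.20 or 1.15-fold, and 8.87% of the brightest genes were as low or lower. Igfbp3 encodes the carrier that holds most circulating IGF-1 in a complex with the acid-labile subunit. It read 7.44 in Iah1-WT and 7.19 in Iah1-KO, a difference of -0.25 or 1.19-fold, and 12.6% of its group were as low or lower. Igfbp4, whose product inhibits IGF action until it is cleaved, read 10.9 and 10.8, and its difference was -0.05. The 3 binding protein genes other than Igfbp1 thus lay between -0.25 and -0.05.

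Over the 10 members the median difference was -0.21, or -0.13 with Grb10 at its bound, and 9 lay below 0. Over all genes past the filter the median was -0.02, and 55.7% lay below 0. The members were named with earlier results of these arrays known, so this median describes them and supports nothing further. With each member left out in turn it stayed between -0.21 and -0.20, a range fixed by the middle members, Pik3r1 and Igfbp2. It still depended on Grb10, whose bound alone moved it to -0.13.

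**Figure D3:**
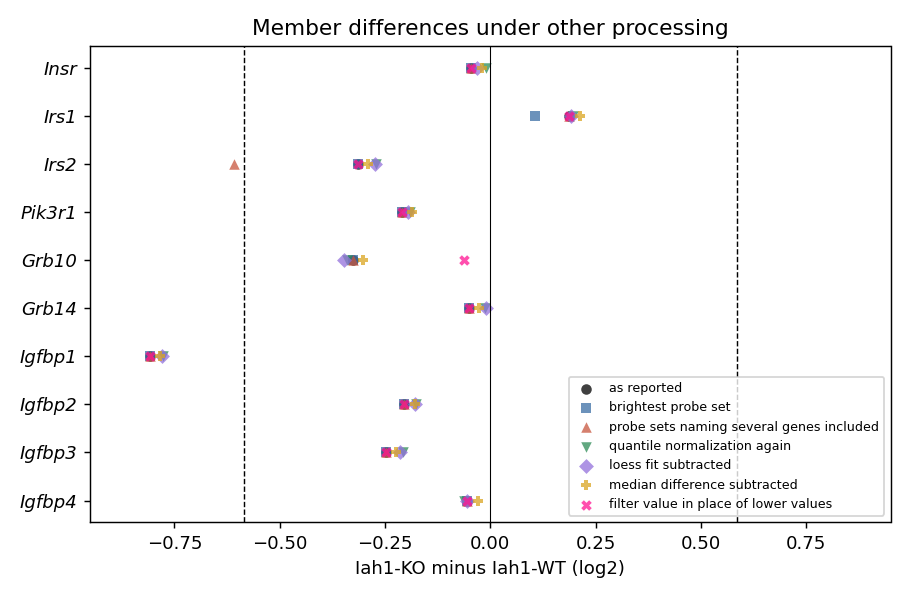
Difference Iah1-KO minus Iah1-WT on the log2 scale (horizontal axis) of each member as reported and under 6 other ways of processing (symbols in the legend). Dashed lines mark 1.5-fold. Igfbp1 stays between -0.81 and -0.78, Irs2 moves to -0.61 where the probe set that names it together with another gene is included, and Grb10 moves to -0.06 where the filter replaces its Iah1-KO value.

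Of 11 further genes for IGF ligands, receptors, binding proteins and their processing, 7 passed the filter. All 7 lay below 0, as 55.7% of all genes did, and their median was -0.27. One of them, Pappa, was below the filter in Iah1-KO, at least 1.01-fold lower. Igf1r, the receptor gene for IGF-1, was the 1 gene of this list past 1.5-fold. It read 5.64 in Iah1-WT and 4.90 in Iah1-KO, which is 1.67-fold lower, in the brightness group where 5.48% of genes were lower by 1.5-fold or more. Igfbp5, the binding protein gene that adjoins Igfbp2 on chromosome 1, read 5.37 and 4.92, which is 1.37-fold lower. Igf1, the gene of the ligand, read 9.73 in Iah1-WT and 9.42 in Iah1-KO, which is 1.23-fold lower. Others are named after their values were seen, because they complete the system. Igfals, which encodes the acid-labile subunit, differed by -0.24, and Igfbp7, an abundant product of endothelium, differed by -0.27. Igf2, the fetal ligand, lay below the filter in both arrays at 3.98 and 4.32, as did Igfbp6 at 4.65 and 4.38. Of the family Igfbp1 to Igfbp7, 6 of 7 passed the filter and these lay between -0.81 for Igfbp1 and -0.05 for Igfbp4, beside 55.7% of all genes below 0.

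Genes that act next to the receptor went both ways. Of 21 listed adaptors and inhibitors of the receptor, 20 were measured and 17 passed the filter. Of these 9 lay below 0 and 8 above, beside 55.7% of all genes below 0, with a median of 0.00 (-0.002). None reached 1.5-fold. Ptpn2, a tyrosine phosphatase gene, came nearest, at 6.92 in Iah1-WT and 6.35 in Iah1-KO, a difference of -0.57. Ptpn11, which encodes the phosphatase SHP2, was 0.26 higher, and the ubiquitin ligase gene Cbl differed by -0.26.

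Downstream of the receptor, 28 of 34 listed genes of PI3-kinase and AKT signalling passed the filter. Of these 19 lay below 0, beside 55.7% of all genes, and their median was -0.05. None was past 1.5-fold in either direction. Tsc1, which encodes an inhibitor of the growth kinase mTOR, differed by -0.41, from 6.84 in Iah1-WT to 6.43 in Iah1-KO. Tbc1d4, an AKT substrate gene, differed by -0.36, and Trib3, an AKT inhibitor gene, by -0.31. The catalytic partners of Pik3r1, named after their values were seen, differed less, with Pik3ca at -0.01 and Pik3cb at -0.04. Akt2, the main AKT gene of liver, also differed by -0.04.

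Other genes listed as repressed by insulin in liver differed less than Igfbp1. The list also holds Foxo1, Foxo3, Foxo4, Crtc2 and Creb1, whose products regulate such genes. All 16 measured genes of that list passed the filter, and they lay between -0.25 and 0.23 with a median of -0.05. Of these 10 lay below 0 and 6 above, beside 55.7% of all genes below 0, and none was past 1.5-fold. Ccng2, a FoxO target gene, differed by -0.25, and Sesn3, another, by -0.20. Foxo1, which encodes the main FoxO factor of liver, was 0.23 higher, but its probe sets disagreed, at 0.01 and 0.44. The gluconeogenic genes Pck1 and G6pc, named after their values were seen, differed by -0.07 and -0.18. Pck1 read 11.8 in Iah1-WT and 11.7 in Iah1-KO, and G6pc 11.0 and 10.8. The gap for Igfbp1 therefore lay outside the range of the whole list, while that for Irs2 lay slightly outside it.

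Genes listed as induced by insulin in liver lay mostly on the other side of 0. Of 18 listed, 16 passed the filter, 10 above 0 and 6 below, with a median of 0.22 and a mean of 0.11. Over all genes past the filter, 55.7% lay below 0. Fasn, which encodes fatty acid synthase, was alone in being higher by 1.5-fold, at 9.60 in Iah1-WT and 10.2 in Iah1-KO. Acly, which supplies acetyl-CoA for it, was 0.43 higher. Ppp1r3g, which encodes a glycogen-targeting subunit, read 4.88 and 4.17, a gap past 1.5-fold by RMA values, but with the Iah1-KO value below the filter it is only shown to be at least 1.15-fold lower. Srebf1, the transcription factor gene of lipogenesis, is named after its values were seen and differed by -0.10. Over all 5 lists together, 84 genes passed the filter, and by RMA values 2 were lower (Igf1r and Ppp1r3g) and 1 higher (Fasn) by 1.5-fold, against 2.45% and 1.47% of all genes. With the filter in place of lower values, 1 was lower and 1 higher, against 181 and 78 of all 11090 genes. By RMA values these counts are no larger a share than that of the background. With the replacement this holds for the lower count only, and 1 gene among 84 cannot be set apart from the background.

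**Figure D4:**
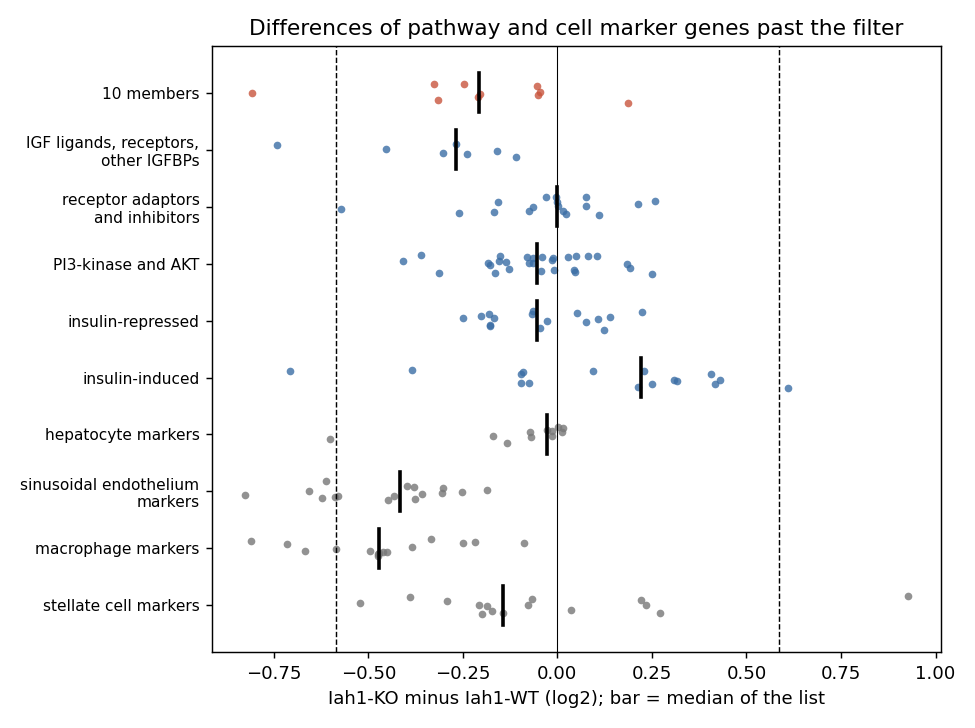
Difference Iah1-KO minus Iah1-WT on the log2 scale (horizontal axis) for genes past the filter in each list, 1 point per gene, with the list's median as a bar and dashed lines at 1.5-fold; vertical jitter has no meaning. The members and the other IGF genes lie mostly to the left of 0, the insulin-induced genes mostly to the right, and the endothelial and macrophage markers entirely to the left.

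Markers of other liver cells were lower in the same array, in which 55.7% of all genes past the filter lay below 0. All 16 markers of sinusoidal endothelium passed the filter and lay below 0, with a median of -0.42, and the summed linear value of the list in Iah1-KO was 0.724 of that in Iah1-WT. Lyve1, the hyaluronan receptor gene of these cells, had the widest gap, at 7.80 in Iah1-WT and 6.97 in Iah1-KO. Of 16 macrophage and Kupffer cell markers, 15 passed, all below 0, with a median of -0.47 and a summed value of 0.700 of that in Iah1-WT, led by the complement gene C1qb at -0.81. Stellate cell markers had a median of -0.14 (10 of 15 below 0), a mean of -0.038 and a summed value of 0.914. Des had their widest gap by RMA values, but its Iah1-WT value of 3.75 is below the filter and its Iah1-KO value of 4.68 just reaches it, so no fold is shown. Hepatocyte markers had a median of -0.03 and a summed value of 0.978, with the widest gap for Ass1 at -0.60. Igf1r, Igfbp3, Igfbp5 and Igfbp7 are known from non-parenchymal liver cells, whereas Igfbp1 and Igf1 are products of hepatocytes. In bulk tissue, fewer cells of a type and less RNA per cell cannot be told apart, and the part of these cells in the values of the members was not tested.

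Markers of further cell types were checked as well. No T or NK cell marker of 7 measured passed the filter, and no B cell marker of 4. Among cholangiocyte markers 1 of 5 measured passed, Sox9 at -0.17. Among adipocyte markers 2 of 6 passed, Fabp4 at 7.54 in Iah1-WT and 7.29 in Iah1-KO, and Lipe at 5.80 and 5.87. Skeletal muscle and exocrine pancreas markers each had 2 that passed, all of them close to the filter, with Acta1 at 0.79 and Ctrb1 at 0.70.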

How the data were processed

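Total RNA of liver was labelled from 100 ng per array, per the labels' protocols, and each array carried RNA pooled from 3 mice, per the labels' design text. The deposited values are log2 values, 1 per probe set in each array. They were made by RMA, with Affymetrix Expression Console 1.3.0 also named, per the submitters' processing notes. RMA narrows the differences of dim probe sets and removes any shift common to all transcripts. For the probe sets, a genome build was not given in the sources used. No detection calls or per-probe intensities were used. The number of arrays limits the precision.

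Of 41345 probe sets, 23521 carried 1 gene symbol, 1814 several and 16010 none. A gene's value was the mean of its probe sets with 1 symbol. A gene's difference is Iah1-KO minus Iah1-WT. Genes were compared where the higher array reached 4.68 and were counted at 1.5-fold (0.58 on the log2 scale). Counts and ranks use the RMA values. Where 1 array was below the filter, the filter took its place in a printed fold, which is then a bound. Counts with this replacement were added after seeing the data. The members and gene lists were chosen with earlier results of these data known. The genes named are the members, the 3 genes with the widest gap and every gene past 1.5-fold of each pathway list, and the gene with the widest gap of each marker list. Promoter motifs were chosen after the members' windows had been read. With 2 arrays no likeness of pattern between genes can be measured. The alternatives were other filters, fold thresholds, probe set rules, centring, quantile normalization again and a loess fit (span 0.4). The counting step was run on simulated data with shifts well past the threshold and less noise than these arrays show. That run checks the code and does not bear on the counts reported here. Computations used Python 3.11.15 with pandas 2.3.3 and statsmodels 0.14.6.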

Additional observations from a re-analysis of the deposited data

How the results depend on the processing

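No paired analysis was possible because each genotype is 1 array. A value was taken to have moved where it changed by more than the standard deviation between probe sets (0.27, divided by the square root of the number of genes for a median), and a count where it changed by more than 1.5 times. Of 220 comparisons with an alternative, 198 stayed within these limits and 22 moved. Some could not move, such as the value of a member with 1 probe set when the brightest was used. The tally is therefore not a measure of stability. The sign was checked for Igfbp1, the only member past 1.5-fold, and did not change. It has 1 probe set and stayed between -0.81 and -0.78, so these alternatives could hardly have reversed it. With the filter in place of lower values, an alternative chosen after seeing the data, 181 genes were lower and 78 higher, and 1 pathway gene was lower. Including probe sets that name several genes gave 2 members lower by 1.5-fold, with Irs2 at -0.61. At 2-fold no member, no pathway gene lower (0) and none higher (0) remained, against 34 lower and 15 higher of all genes. At the lowest threshold tried there were 2 members lower, 7 pathway genes lower and 4 higher, and 1151 and 734 of all genes. The 2 members were Igfbp1 and, by RMA values, Grb10 at -0.33. The Iah1-KO value of Grb10 is below the filter, so its fold is only shown to be at least 1.04-fold lower. Irs2, at -0.31 as reported, did not reach this lowest threshold. Without a filter 576 genes were lower and 572 higher. With the filter at the 75th percentile (6.52), 61 genes were lower, 18 higher and 0 pathway genes lower, and 7 members passed, all below 0. Irs1, Irs2 and Grb10 were left out there. By the mean, insulin-induced genes were at 0.11 and stellate cell markers at -0.038. Subtracting the median difference, the loess fit or quantile normalization again left 9 members below 0, and the share of all genes below 0 became 50%, 50.04% and 50.4%.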

Other observations

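Chromosomal neighbours of the members did not share one direction. In the gene order of RefSeq (GRCm38.p6), Igfbp1 and Igfbp3 lie next to each other on chromosome 11, and differed by -0.81 and -0.25. The protein-coding gene on the other side of Igfbp1, Adcy1, lay below the filter in both arrays, and Tns3, on the other side of Igfbp3, differed by -0.21. Igfbp2 and Igfbp5 lie next to each other on chromosome 1, and differed by -0.20 and -0.45. Grb10, on chromosome 11 and expressed from one parental copy in a tissue-dependent way, lies between Ddc, at 0.20, and Cobl, at -0.49. Irs2, on chromosome 8, lies beside Col4a1, which differed by 0.09. Pik3r1, on chromosome 13, lies between Slc30a5, at -0.09, and Cd180, at -0.42 by RMA values. The Iah1-KO value of Cd180, 4.55, is below the filter. All of these genes were named after the order of genes had been read, for their position.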
